A study of Mus musculus and synthetic construct with 32 samples.

Results

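Well-covered sense introns were selected on their mean normalized count: rows for reads on the sense strand of a gene's introns with at least 100, as the mean over all libraries of a table. There were 9877 of 18616 sense introns in P8 testis, 9192 of 18729 in P12 testis, 7716 of 17586 in P0 ovary and 5558 of 20085 in the m6A table. Of 20226 genes with a sense intron row in any table, 10578 passed in at least 1 table and 4714 in all 4. A row pools all introns of a gene, so a value cannot be placed in a single intron. The floor used levels and no fold, but an intron high in 1 genotype alone can pass it through that genotype. In the m6A table an intron high in the immunoprecipitates can pass the floor through them. At P12 the members nearest the floor on the inside (Degs1, Adap1 and Dtwd1) had mean counts that round to 100 and log2 folds of -0.09, 0.25 and 0.07 per the authors' deposited table. Just outside it, Zbtb8os, Mob3a and Mob3c had a mean count of 99.9 each and folds of 0.01, -0.16 and 0.07 per the authors' deposited table.

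The study disrupted Ythdc2 in C57BL/6J mice with Cas9. Its product is a helicase whose YTH domain recognizes N6-methyladenosine (m6A), a modified base of RNA. There were 2 knockout lines, 1 without exon 7 and 1 with stop codons placed in exon 7, and the labels do not give the line of each library. Testis libraries from postnatal day 12 (P12) were 3 of YTHDC2 -/- and 3 of YTHDC2 +/- mice. At P8 there were 2 testis libraries of YTHDC2 -/- mice and 1 each of YTHDC2 +/- and YTHDC2 +/+ mice. The P0 ovary table held 2 libraries of each of YTHDC2 -/- and YTHDC2 +/-. Knockout, heterozygote and wild type below mean these genotypes, and every fold is a log2 fold. These libraries held total RNA depleted of ribosomal RNA, made with a stranded kit. The m6A values compare 1 immunoprecipitate with 1 input of polyadenylated testis RNA from YTHDC2 +/+ mice at P8, with no replicate. The m6A mean counts, and so the floor, come from a single column of a table that also holds YTHDC2 +/- testis at P12 and YTHDC2 +/+ testis at P20. That column was read as the mean over all 10 m6A libraries, and the 4 columns of the other ages were not used because their order did not match the rows. Each total RNA table gives 1 mean over its libraries and the log2 fold between genotypes, so no value per library and no SD between replicates is printed here, and the adjusted p-values are the authors' own. The labels do not say that libraries of a group came from separate animals, and those p-values may measure technical spread.

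Introns are transcribed with the exons and removed by splicing, mostly while the RNA is still in the nucleus. Reads in introns of total RNA therefore come from unspliced precursor, from introns that are kept in the RNA, and from other transcripts inside the gene. In germ cells the switch from mitosis to meiosis starts transcription of genes for chromosome axes, the synaptonemal complex and recombination. YTHDC2 and its partner MEIOC are known as cytoplasmic regulators of this switch. In whole gonads, fewer cells of a type and less RNA per cell cannot be told apart.

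Sequences are shown upstream of some of the 100 genes whose introns fell at P12, a group chosen by that fall alone. A RefSeq promoter window on GRCm38.p6 was found for 75 of those 100 genes, 98 windows in all. Each line gives the 250 bases before a RefSeq transcript start on the gene's strand, and capitals mark matches on either strand to a motif of STRA8 (CNCCTCAG), MYB (AACNGNC) or E2F (GCGGGAA). Spata22 (chr11:73329491-73329740, plus strand) and Mtl5, now Tesmin (chr19:3388607-3388856, plus strand) had the lowest intron folds after Meiob, and hold none of these motifs. Prdm9 (chr17:15564355-15564604, minus strand) and Msh5 (chr17:35046623-35046872, minus strand) hold all 3, and in Prdm9 the E2F and STRA8 matches overlap. These 2 genes were added by name and not by the size of their fall. Prdm9 has 2 windows, and the window with the most kinds of motif is shown. Among the next largest falls with a window, Stxbp5l and Ccdc79 held none of the motifs, and Ccnb3 and Grk4 held MYB alone. Stra8 (chr6:34920698-34920947, plus strand) is shown because its intron moved the other way. The windows of Spata22, Msh5 and Stra8 lie inside the RefSeq span of the gene, and that of Prdm9 overlaps it.
Spata22: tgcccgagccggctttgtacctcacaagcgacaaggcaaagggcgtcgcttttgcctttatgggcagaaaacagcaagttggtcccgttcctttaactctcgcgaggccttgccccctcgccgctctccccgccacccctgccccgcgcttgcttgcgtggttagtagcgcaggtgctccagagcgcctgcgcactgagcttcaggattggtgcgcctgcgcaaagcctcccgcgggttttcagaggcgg
Mtl5: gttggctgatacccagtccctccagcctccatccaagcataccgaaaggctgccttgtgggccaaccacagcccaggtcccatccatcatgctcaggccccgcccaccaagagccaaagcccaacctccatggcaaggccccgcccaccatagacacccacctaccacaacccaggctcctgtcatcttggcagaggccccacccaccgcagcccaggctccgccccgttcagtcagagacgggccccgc
Prdm9: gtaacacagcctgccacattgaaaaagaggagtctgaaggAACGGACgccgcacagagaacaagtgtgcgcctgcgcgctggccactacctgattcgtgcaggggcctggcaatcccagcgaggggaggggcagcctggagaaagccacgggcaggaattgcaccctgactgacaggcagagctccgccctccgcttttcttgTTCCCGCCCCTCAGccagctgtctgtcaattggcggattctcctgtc
Msh5: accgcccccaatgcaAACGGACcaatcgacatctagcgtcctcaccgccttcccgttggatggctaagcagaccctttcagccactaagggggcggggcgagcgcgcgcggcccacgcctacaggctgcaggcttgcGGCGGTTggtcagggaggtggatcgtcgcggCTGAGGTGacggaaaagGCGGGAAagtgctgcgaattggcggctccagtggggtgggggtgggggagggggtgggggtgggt
Stra8: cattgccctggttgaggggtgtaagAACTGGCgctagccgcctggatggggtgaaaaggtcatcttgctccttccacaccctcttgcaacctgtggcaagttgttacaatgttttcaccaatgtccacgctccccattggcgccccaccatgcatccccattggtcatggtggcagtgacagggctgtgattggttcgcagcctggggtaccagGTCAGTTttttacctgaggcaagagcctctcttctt

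The STRA8 motif stood in 12 of 98 windows of the lower introns (12.2%), against 7.49% of 9643 windows of all well-covered introns at P12 and 6.42% of 32851 windows in the RefSeq table. Hfm1, a helicase of meiotic crossing over, and Hormad2, a protein of unpaired chromosome axes, were among the genes with it. The E2F motif stood in 12.2% of the same windows, against 7.27% and 3.82%, and the MYB motif in 33.7%, against 27.8% and 27.7%. A cyclic AMP response element (TGACGTCA) stood in 1.02%, against 2.51% and 1.55%. These shares describe letters in a window and say nothing of binding.

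In the total RNA tables the well-covered introns held nearly all intronic signal, a share that their selection on the same counts favours. They carried 98.4% of the summed sense-intron signal at P8, 97.2% at P12 and 97.3% in ovary, and 28.3%, 20.8% and 35.7% of the signal of all features. In the m6A table, made from polyadenylated RNA, they held 6.66% of the signal of all features. As depth, the sum of mean normalized counts over every feature ranged from 23754200 (ovary) to 42229600 (P8), with 37066700 for P12 and 24879900 for m6A. The median member had a mean count of 534 at P8, 434 at P12 and 410 in ovary. An intron row exceeded the exon row of its own gene for 35.0% of members at P8, 25.7% at P12 and 54.7% in ovary, but for 7.23% in the m6A table. The highest rows were Auts2 at P8 with 49855 and Zbtb20 at P12 with 28154 per the authors' deposited tables. These are long genes, and the level rose with gene length: the median RefSeq span of the genes was 37.4 kb at P12, against 13.1 kb for genes under the floor, and Spearman's rho between intron count and span across 9168 members was 0.56. The counts are not scaled by length, so the floor itself favours long genes. Per kilobase of gene span the P12 members ran from 1.87 at the 5th percentile to 50.2 at the 95th.

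As markers of the tissue, exons of the germ cell helicase Ddx4 had mean counts of 2711 at P12 and 172 in ovary, the Sertoli cell gene Sox9 1399 and 125, and the pregranulosa gene Foxl2 2.87 and 195, per the authors' deposited tables. The heterozygous P8 library held more spermatid RNA than the wild-type one. Exons of all 8 spermatid genes looked at (Prm1, Prm2, Tnp1, Tnp2, Odf1, Smcp, Akap4 and Oaz3) lay below 0 in the P8 knockout against it, 5 of them with an adjusted p under 0.05, and the fold of Prm2 was -1.03. In the heterozygote against wild type all 8 lay above 0 and 2 rose, and in the knockout against wild type all 8 lay below 0, with a median of -0.16 and none called. None of these genes has a well-covered intron. The list was chosen after the values were seen.

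The targeted gene itself had a well-covered intron in every table. Ythdc2 (chr18:44827730-44889720, RefSeq GRCm38.p6) had an intron mean count of 782 at P12, an intron fold of -0.34 (adjusted p = 0.455) and exons that fell, at -1.29 (adjusted p = 9.87e-25), per the authors' deposited table. The difference of 0.96 was the largest in the intron's favour at P12. In ovary the authors' deposited table gave the Ythdc2 intron 0.05 and its exons -0.43, and at P8 against wild type 0.00 and -0.50, with no adjusted p under 0.05. In each comparison the intron lay above the exons. These values cover the whole gene and do not check a lesion in exon 7.

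At P12, 100 introns fell and 8 rose in the knockout, at an adjusted p under 0.05, among 9192. That is 1.09% lower, against 0.554% of all features that the authors' deposited table gives an adjusted p, and 0.087% higher, against 0.0697%. Among 12064 sense exon rows at the same floor, 101 fell and 11 rose. Of the 100 genes with a lower intron, 44 also had exons that fell. Of the other 56, 53 had an exon fold below 0, with a median exon fold of -0.28 against a median intron fold of -0.63. All 82 genes whose exons fell and whose introns were well covered had an intron fold below 0. Under the floor, 29 introns fell and 5 rose among 4690 with an adjusted p.

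**Figure D1:**
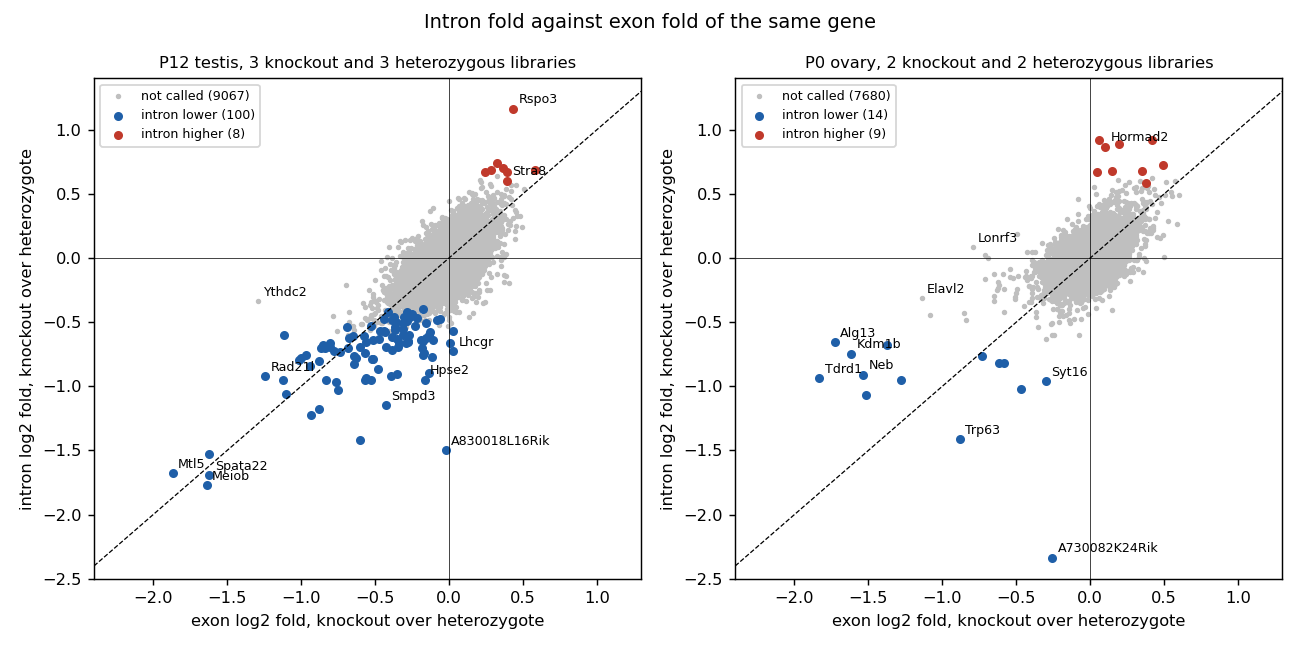
Log2 fold of sense introns (vertical axis) against that of sense exons of the same gene (horizontal axis) in P12 testis and P0 ovary, knockout over heterozygote. Each point is 1 gene with a well-covered intron and an exon row, blue and red points have an intron adjusted p under 0.05, and the dashed line marks equal folds. All 100 blue points at P12 lie below 0, and in ovary Tdrd1, Alg13 and Kdm1b lie above the line.

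Genes of meiotic prophase I were among the largest falls, and their list was chosen with earlier results of these data known. Of 40 members of the list for meiotic entry and prophase I, 17 introns fell and 1 rose, 38 lay below 0, and the median intron fold was -0.46 beside a median exon fold of -0.51, while the median over all members was -0.0095. Meiob, a single-strand DNA binding protein of meiotic recombination (chr17:24804301-24839788), had an intron mean count of 110 and a fold of -1.77 (adjusted p = 1.28e-17) per the authors' deposited table. Its partner Spata22 (chr11:73326560-73346592) had 112 and a fold of -1.69, with exons at -1.62, per the authors' deposited table. Mtl5 (chr19:3388857-3407823), a spermatocyte regulator, stood at -1.68 in introns and -1.87 in exons per the authors' deposited table. Ccnb3, a cyclin of meiotic germ cells, stood at -1.52 and -1.62. All of these introns fell, and intron and exon folds of each gene lay close together.

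Introns and exons also lay close together in genes with smaller falls. The synaptonemal complex gene Sycp2, with an intron mean count of 2324, stood at -0.80 in introns and -0.88 in exons per the authors' deposited table. Ccdc79, now Terb1, which links chromosome ends to the nuclear envelope, stood at -1.06 and -1.11. Prdm9, the methyltransferase that places recombination hot spots, stood at -0.70 in introns and -0.87 in exons per the authors' deposited table. Spo11, which makes the breaks, stood at -0.68 and -0.85, and the recombinase Dmc1 at -0.53 and -0.69. The exon fold was the lower one for the cohesin Rad21l (-1.24, intron -0.92) and for Msh5, which stabilizes crossover intermediates (-1.11, intron -0.60). The reverse order held for Hsf2bp, a partner of BRCA2 in meiosis, at -0.95 in introns and -0.57 in exons per the authors' deposited table. Mei4, needed for break formation, stood at -0.50 in introns (adjusted p = 0.0484) and -0.31 in exons (adjusted p = 0.57). Meioc did not pass, with -0.32 in introns and -0.29 in exons.

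**Figure D2:**
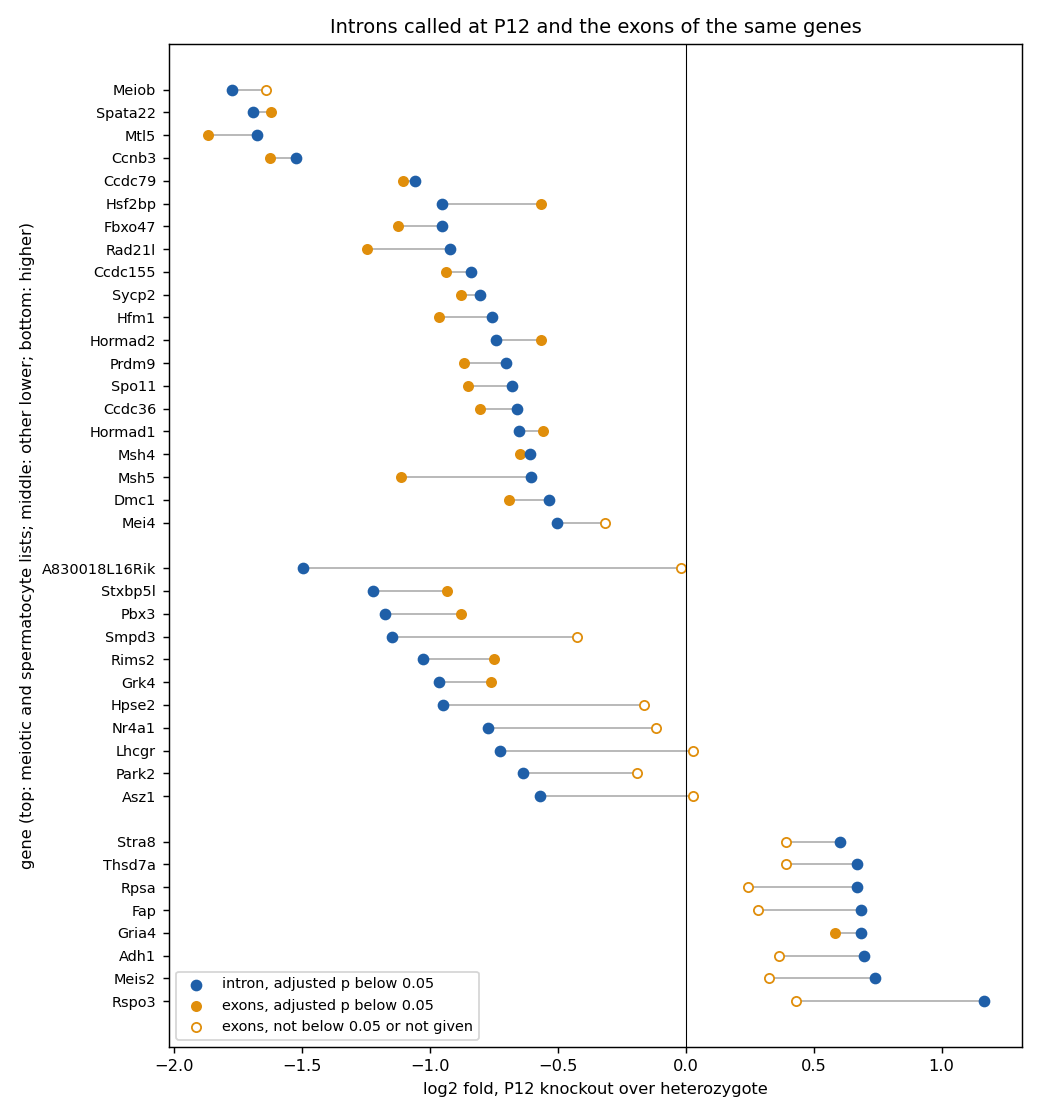
Log2 fold at P12, knockout over heterozygote, of the intron (blue) and the exons (orange) of named genes whose intron passed an adjusted p of 0.05. Filled orange points passed in exons too, and open ones did not or have no adjusted p (Meiob). In most meiotic genes both points lie close together, while A830018L16Rik, Smpd3, Hpse2, Lhcgr and Asz1 have open exon points far to the right of the intron.

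Stra8, the transcription factor gene that opens the meiotic programme (chr6:34920163-34939344), went the other way. Its intron had a mean count of 954 and rose by 0.60 (adjusted p = 0.0173), with exons at 0.39 (adjusted p = 0.187), per the authors' deposited table. It was the sole gene of the meiotic list with a higher intron at P12. At P8 the authors' deposited table gave its intron 0.05 against wild type.

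Other introns fell with little or no fall in the exons. A830018L16Rik, a gene of 562 kb (chr1:11413615-11975902), had an intron mean count of 116 and the lowest fold after Ccnb3 (adjusted p = 3.48e-12), with exons at -0.02, per the authors' deposited table. Its exon row held a mean count of 8.24 alone, and the authors' exon folds at mean counts below 10 had an SD across genes of 0.042 at P12, against 0.171 between 100 and 1000. So an exon fold near 0 at such a count shows little. With an exon mean count of at least 100, 17 members had an intron fold at least 0.50 below the exon fold and 2 at least 0.50 above it, and the median difference over 8706 genes was 0.0017. Hpse2, a relative of heparanase, had 1836 intron counts at -0.95 (adjusted p = 1.52e-06) and exons at -0.16 (mean count 101) per the authors' deposited table. Smpd3, a neutral sphingomyelinase, stood at -1.15 in introns and -0.43 in exons (adjusted p = 0.304). RefSeq places 2 pseudogenes inside Hpse2 and 1 long noncoding RNA inside Smpd3. Asz1, a germ cell gene of the piRNA pathway, fell by 0.57 in introns (adjusted p = 0.00447) with exons at 0.03 per the authors' deposited table, and no RefSeq gene lies inside it.

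A pair of genes of steroid-making Leydig cells belonged to the same group. The intron of Lhcgr, the receptor for luteinizing hormone (chr17:88716384-88792059), had a mean count of 484 and fell by 0.73 (adjusted p = 2e-05), with exons at 0.03, per the authors' deposited table. Nr4a1, an immediate early factor that acts on steroid genes, fell by 0.77 in introns (adjusted p = 0.00687) with exons at -0.12. They were the called introns among 8 Leydig members, whose median intron fold was -0.076 and median exon fold 0.047. No RefSeq gene lies inside either of them.

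Park2, a ubiquitin ligase gene of 1223 kb with an intron mean count of 4150, stood at -0.64 in introns and -0.19 in exons, per the authors' deposited table. Introns of some genes that lie side by side fell together. Gm960 and Pcx lie 3982 bases apart, and their introns stood at -0.70 and -0.60. Reads that run from 1 gene into the next were not separated. The falls also included introns of Stxbp5l, which acts in vesicle release, at -1.22, the homeobox gene Pbx3 at -1.17, the synaptic gene Rims2 at -1.03 and the receptor kinase Grk4 at -0.97, each with exons that also fell, per the authors' deposited table.

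Beside Stra8, 7 introns rose at P12, and none of those genes was on the meiotic list. Rspo3, an activator of Wnt signalling (chr10:29453106-29535867), had a mean count of 143 and rose by 1.16 (adjusted p = 4.8e-07), with exons at 0.43 (adjusted p = 0.18), per the authors' deposited table. Meis2, a homeobox factor, rose by 0.74, Adh1, an alcohol dehydrogenase, by 0.70, Gria4, a glutamate receptor subunit, by 0.69, Fap, a fibroblast protease, by 0.68 and Thsd7a by 0.67. Gria4 alone had exons that rose (0.58, adjusted p = 0.0301). Rpsa, a ribosomal protein gene that hosts small nucleolar RNAs, rose by 0.67 in introns with exons at 0.24 (adjusted p = 0.441) per the authors' deposited table. RefSeq lists 3 small nucleolar RNAs inside it. Of 31 members of the list of snoRNA host genes, 28 had an intron fold above 0, with a median of 0.21 and a median exon fold of 0.099, and Rpsa alone passed. These are short genes, and set against the median of members of like span the list's median was 0.13. In the P8 knockout 26 of 32 members of the list lay below 0 against wild type, with a median of -0.13. Against the P8 heterozygote 26 of 32 did too, with a median of -0.10, and none passed in either. Of 12 peritubular and stromal members at P12 none passed, with a median of 0.12.

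In ovary, 14 introns fell and 9 rose among 7716, or 0.181% and 0.117%, against 0.22% and 0.0601% of all features that the authors' deposited table gives an adjusted p. Of the 14 genes with lower introns, 11 had exons that fell, and none of the 9 with higher introns had exons that passed. At this floor 47 of 10076 exon rows fell and 10 rose.

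Germ cell and oocyte genes were among those whose introns fell in ovary. Both lists were chosen with earlier results of these data known, and Kdm1b is on both. Of 12 members of the germ cell and piRNA list, 4 introns fell and 11 lay below 0, with a median intron fold of -0.31 and a median exon fold of -0.77, beside 0.0045 for all members. Introns of 8 Sertoli cell genes, a list for the somatic supporting cells of the testis, all lay above 0 in ovary with a median of 0.23 and none called, and those of 12 peritubular and stromal genes had 8 above 0 and none called. Of 10 members of the pregranulosa list 6 lay above 0 and 4 below, with a median of 0.082 and none called. Introns of 8 endothelial genes had 6 above 0, and those of 3 macrophage genes 1, with none called. The part of such differences between cell types in the germ cell values was not tested. Tdrd1, a Tudor protein of the piRNA pathway (chr19:56826171-56870012), had an intron mean count of 126 and folds of -0.94 in introns and -1.83 in exons (adjusted p = 0.000131 and 3.08e-25) per the authors' deposited table. Tdrd9, a helicase of the same pathway, stood at -1.07 and -1.52. Of 5 members of the oocyte list 3 introns fell: Kdm1b, Neb and Trp63. Kdm1b, a histone demethylase of growing oocytes, stood at -0.75 in introns and -1.61 in exons per the authors' deposited table. Cpeb1, which controls translation of oocyte mRNA, stood at -0.67 and -1.37. Alg13 (chrX:144317966-144374450), a glycosylation gene, stood at -0.66 in introns (adjusted p = 0.0104) and -1.73 in exons per the authors' deposited table, the largest difference between intron and exons in ovary at 1.07. Esrp1, an epithelial splicing factor, stood at -0.95 and -1.28. All of these introns and exons passed.

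Where the exons were well covered too, a wide difference in ovary mostly placed the intron fold above the exon fold. With an exon mean count of at least 100, 16 genes had an intron fold at least 0.50 above the exon fold and 1 had it at least 0.50 below (Fads3, -0.40 against 0.15, neither called). Elavl2, an RNA binding protein, had introns at -0.31 (adjusted p = 1) and exons that fell, at -1.14, per the authors' deposited table. Lonrf3 had introns at 0.09 and exons at -0.79, and Rnf17, a Tudor protein of germ cells, 0.03 and -0.71, and both exon folds passed. Over all 6821 genes with both values the median difference was 0.0028, and Spearman's rho across genes between intron and exon folds was 0.44, against 0.61 over 8706 genes at P12. The tables are separate fits, and a difference between these values was not tested.

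Some introns fell further than their exons in ovary too. The lowest was A730082K24Rik (chr7:114948650-114983967), with a mean count of 139 and a fold of -2.34 (adjusted p = 4.19e-36), while its exons, at a mean count of 10.1, stood at -0.26. Ovary exon folds had an SD across genes of 0.035 below a mean count of 10, 0.133 from 10 to 100 and 0.155 from 100 to 1000. An exon fold at a count so near 10 shows little. Of the 14 genes with lower introns, 9 had an exon mean count of at least 100. Trp63, the p53 relative that guards oocytes, stood at -1.41 in introns and -0.88 in exons per the authors' deposited table. Ryr3, a calcium channel, stood at -1.02 in introns and -0.47 in exons, and Syt16 at -0.96 and -0.30, and neither exon row passed. In Neb, which encodes nebulin of muscle filaments, the exons again stood lower, at -1.53 against -0.91 in introns.

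The 9 introns that rose in ovary had no called exons. Pparg, a nuclear receptor (chr6:115360879-115490404), had an intron mean count of 192 and rose by 0.92 (adjusted p = 0.000132), with exons at 0.06 and a mean count of 20.1, per the authors' deposited table. Tsc22d3, a gene induced by glucocorticoids, rose by 0.89 in introns (adjusted p = 7.98e-05) with exons at 0.19 and a mean count of 761. Trank1 rose by 0.92, Adam23 by 0.72, Klhl29 and Mtmr7 by 0.68, Pld5 by 0.67 and Arrdc3 by 0.59 in introns per the authors' deposited table. The meiotic gene Hormad2 (chr11:4345801-4441198) rose by 0.87 in ovary introns (adjusted p = 0.000614), with exons at 0.10, and its intron fell by 0.74 at P12. Just under the floor, the Ccnb3 intron (mean count 97.5) stood at 0.94 in ovary with an adjusted p of 0.00013 per the authors' deposited table. Of 15 meiotic members in ovary, 11 lay above 0, Hormad2 alone passed, and the median was 0.085.

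None of the 100 introns that fell at P12 passed as lower in ovary, where 0.181% of all members did. So low a share leaves little room for an overlap. Of those 100, 57 were well covered in ovary, where 44 lay above 0, 1 rose (Hormad2) and the median was 0.087, beside 0.0045 for all ovary members. At P8 against wild type, with 1 control library, 79 were well covered, and the median was 0.048 beside 0.019 for all members. Of the 14 that fell in ovary, 9 were well covered at P12, and 7 of these lay below 0, with a median of -0.11. None of the 9 passed at P12, where 1.09% of all members fell. The folds come from separate fits and no test compared the ages or sexes.

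At P8 few introns passed. Against wild type 1 fell and 1 rose among 9877, and 13 features of any kind passed, 0.0177% of those with an adjusted p. Against the heterozygote 3 fell and none rose, and again 13 features of any kind passed, 0.0177%. Both comparisons share the 2 knockout libraries, and the control in each is 1 library. The tables used here hold adjusted p alone, so no count at an unadjusted p is given.

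Rgcc, a regulator of the cell cycle, had an intron mean count of 132 and fell by 0.90 against wild type (adjusted p = 0.0288), with exons at -0.35, per the authors' deposited table. Against the heterozygote its intron stood at -0.71 (adjusted p = 0.645). Sft2d2, a vesicle transport gene on chromosome 1 (chr1:165174341-165194522), rose by 0.98 in introns (adjusted p = 0.0257) and 0.90 in exons against wild type per the authors' deposited table. Against the heterozygote it stood at 0.58 in introns, and in the heterozygote against wild type at 0.41, with no adjusted p under 0.05 in either.

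The highest P8 introns against wild type lay mostly on chromosome 1. Of the 50 highest intron folds against wild type, 36 were on that chromosome, which holds 6.19% of the members, and against the heterozygote 19 were. In the heterozygote against wild type 15 of the 50 highest were on it, while at P12 none of the 50 highest was. Against wild type they included Gpr39 at 0.81, Ildr2 at 0.79, Syt2 at 0.73 and Abl2 at 0.68 per the authors' deposited table, and none of these passed. Intron and exon folds could differ widely there. Wdfy1 (chr1:79702262-79776143), an endosomal protein, had introns at 0.37 and exons that fell, at -0.77 (adjusted p = 0.0136), the largest difference at P8 against wild type per the authors' deposited table. Ythdc2 itself is on chromosome 18. Off chromosome 1, the ribosomal protein gene Rpl21 had introns at -0.10 and exons that rose by 0.89, and its exon reads are uncertain because near-identical copies exist.

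**Figure D3:**
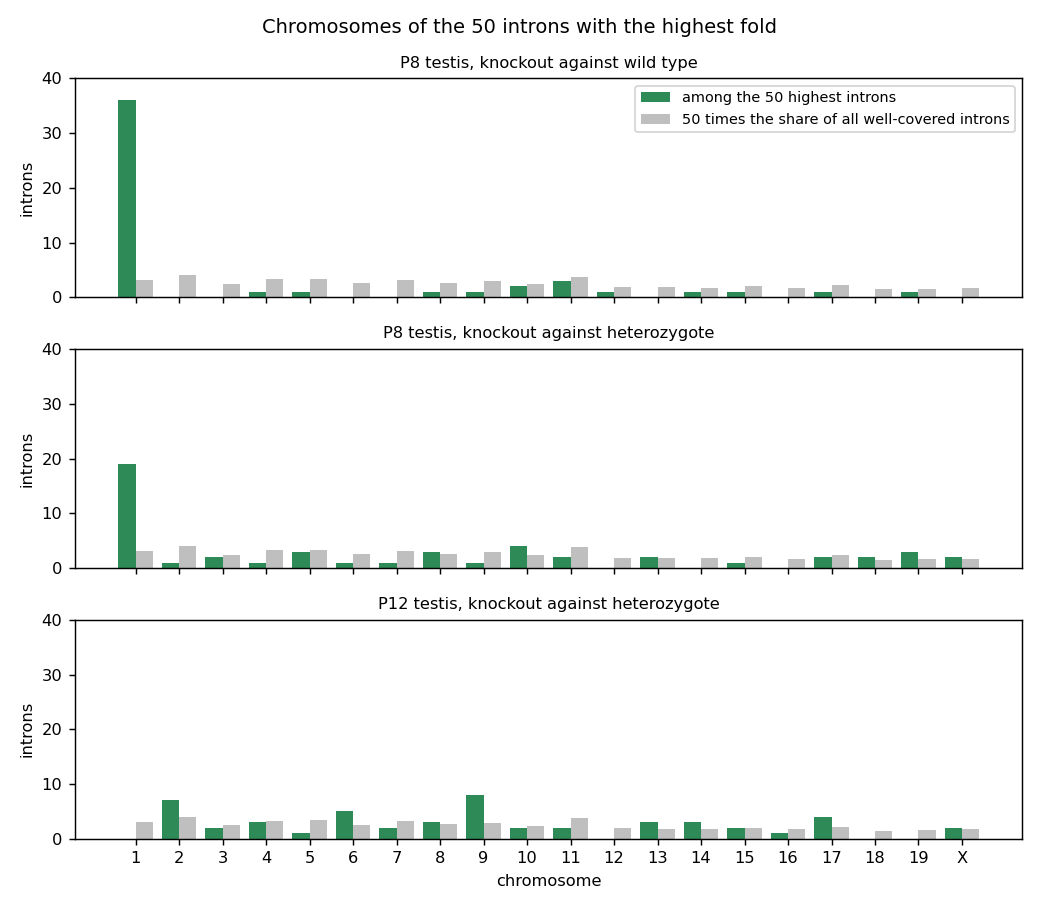
Number of introns on each chromosome among the 50 with the highest fold (green) and 50 times the chromosome's share of all well-covered introns (grey), for the P8 knockout against wild type, the P8 knockout against the heterozygote and the P12 knockout against the heterozygote. Chromosome 1 holds 36, 19 and 0 of the 50.

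The 3 lower introns against the P8 heterozygote were of Cyp17a1, Star and Kcnh1, and their folds against wild type were smaller. Cyp17a1, an enzyme of androgen synthesis (chr19:46667165-46673000), had an intron mean count of 196 and a fold of -2.11 in the knockout against the heterozygote (adjusted p = 3.24e-22), with exons at 0.01 and a mean count of 1840, per the authors' deposited table. The same intron stood at 1.61 in the heterozygote against wild type (adjusted p = 5.13e-13) and at -0.50 in the knockout against wild type (adjusted p = 1). Star, which moves cholesterol into mitochondria, had -0.91 in the knockout against the heterozygote (adjusted p = 0.0134), -0.18 against wild type, and exons at -0.13 and -0.29. Kcnh1, a potassium channel gene on chromosome 1, had intron folds of -0.99 against the heterozygote (adjusted p = 0.00654) and 0.03 against wild type per the authors' deposited table. In the heterozygote against wild type 2 introns rose, Cyp17a1 and Kcnh1 (1.02, adjusted p = 0.00111), while 4 features of any kind passed, 0.00545%. The median intron fold of 10 Leydig members was -0.55 against the heterozygote and -0.14 against wild type, beside median exon folds of -0.13 and -0.11. Fdx1, which feeds electrons to steroid enzymes, stood at -0.75 and -0.12 in introns. The spermatid transcripts of that library are given above, and their part in these values was not tested.

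Intron folds also moved with the length of the gene. With members in 10 groups of equal size by span, the median intron fold at P12 ran from 0.085 in the shortest to -0.094 in the longest, and Spearman's rho across 9168 members was -0.32. At P8 against wild type it ran the other way, from -0.097 to 0.14, with a rho of 0.51 across 9850 members, and in ovary from -0.014 to 0.057, with a rho of 0.19 across 7697. The P8 heterozygote against wild type, 1 library each and no knockout, showed a rho of 0.36 and medians from -0.028 to 0.075. Exon folds followed span less, with a rho of -0.14 at P12, 0.26 at P8 against wild type and 0.07 in ovary. Of 46 members of a list of genes with very long introns, 44 lay above 0 at P8 against wild type, with a median of 0.135, and 21 of 43 at P12, with a median of -0.010. In the P8 heterozygote against wild type 43 of the 46 lay above 0, with a median of 0.116. In the P8 knockout against the heterozygote 28 did, with a median of 0.031. Set against members of like span, the list's median in the P8 knockout against wild type was -0.006. None of the 46 passed at P8, and 1 fell at P12 (Park2). The median span of the 100 introns that fell at P12 was 80.0 kb, and net of the median of genes of like span the meiotic list stood at -0.41 in place of -0.46. The part of the length trend in these calls was not tested otherwise.

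**Figure D4:**
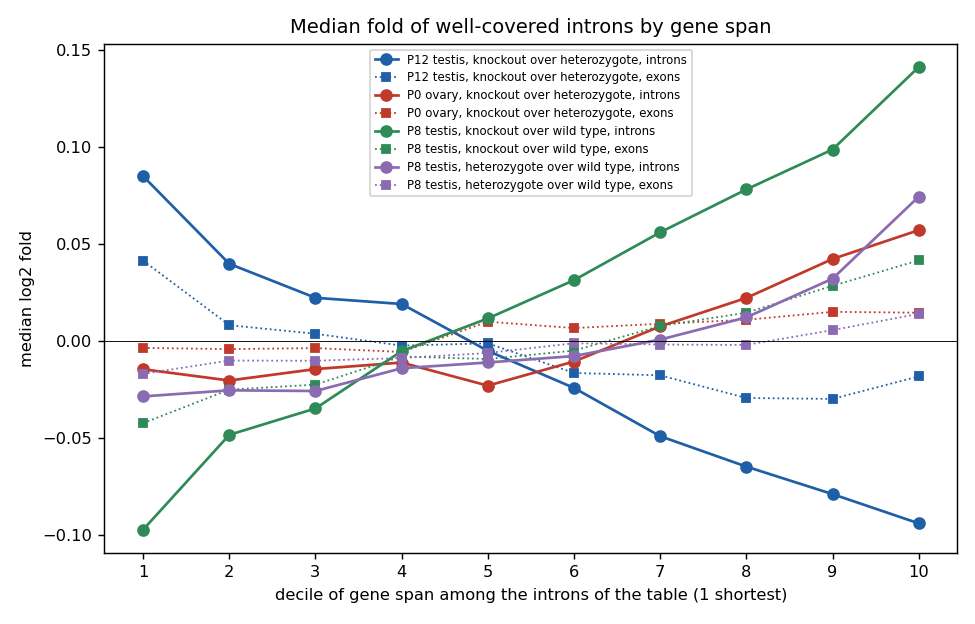
Median log2 fold of well-covered introns (circles, solid lines) and of exons of the same genes (squares, dotted lines) in 10 groups of equal size by RefSeq gene span, shortest on the left. The P12 line runs from 0.085 to -0.094, and the line for P8 knockout over wild type from -0.097 to 0.14.

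In the m6A data, fold means immunoprecipitate over input at P8, with 1 library of each. Of 5558 well-covered introns, 432 had a log2 fold of at least 1 (7.77%), against 17.7% of 19856 features at this floor, and 212 one of -1 or less (3.81%), against 15%. The authors' own adjusted p was under 0.05 for 395 with a fold above 0 and 284 below. The median intron fold was -0.20, and the median difference from the exons of the same gene over 5364 genes was 0.20. Intron and exon folds were weakly related across genes, with a Spearman's rho of 0.21. Of 765 genes with an exon fold of at least 1, 12.2% had an intron fold of at least 1, against 7.38% of 3224 genes with an exon fold between -1 and 1 and 3.13% of 1375 with an exon fold of -1 or less. Polyadenylated RNA was used, so introns here are those that remain in such RNA, other transcripts inside the gene, or unannotated exons, which the rows do not separate.

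**Figure D5:**
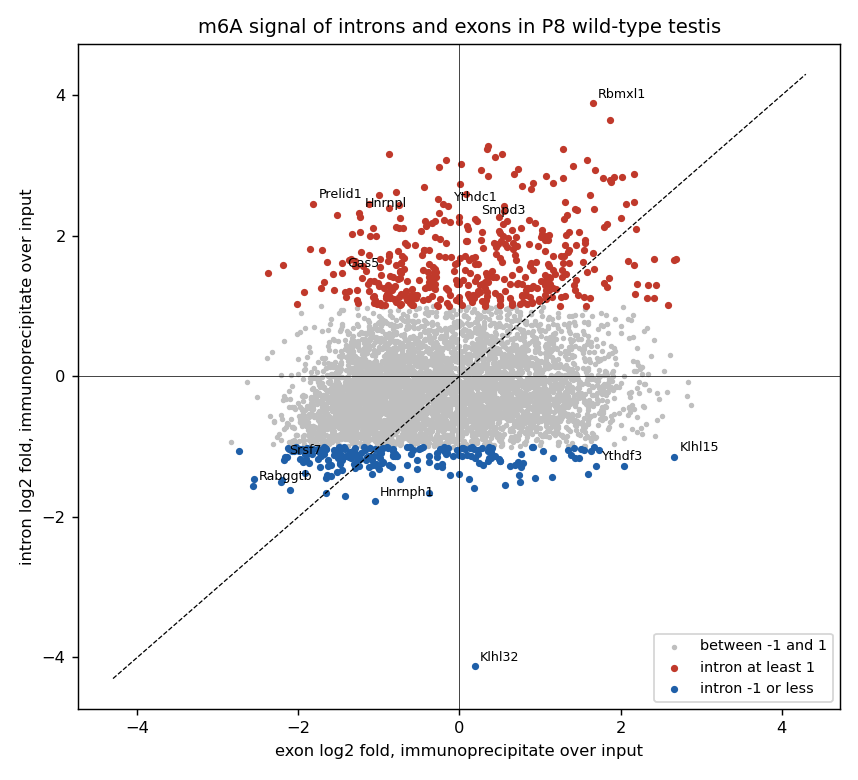
Log2 fold of immunoprecipitate over input in P8 wild-type testis for introns (vertical axis) and exons (horizontal axis) of the same gene. Each point is 1 gene with a well-covered intron and an exon row, coloured at an intron fold of at least 1 (red) or -1 or less (blue), and the dashed line marks equal folds. Red points spread over exon folds on both sides of 0, and Klhl32 stands alone at -4.12.

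Some genes had a high intron fold and little or none in their exons. Ythdc1, the nuclear m6A reader (chr5:86803980-86836659), had 2173 intron counts at 2.42 and exons at -0.15 per the authors' deposited table. Hnrnpl, a splicing regulator, had introns at 2.33 and exons at -1.24, and Prelid1, a mitochondrial lipid carrier, 2.46 and -1.82. Gas5, a host of small nucleolar RNAs, had introns at 1.47 and exons at -1.46 per the authors' deposited table. Smpd3, whose intron fell at P12, stood at 2.24 in introns and 0.20 in exons.

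The highest fold was 3.88 for Rbmxl1, an RNA binding protein gene of 3.66 kb (chr8:78505269-78508928), with exons at 1.65. D17H6S53E stood at 3.65 and Gm53 at 3.28 per the authors' deposited table. Opn3, an opsin, stood at 3.24, and RefSeq places the protein-coding gene Chml inside it. Nr2f6, an orphan nuclear receptor, had 3.24 in introns and 0.34 in exons. The genes with an intron fold of at least 1 were short, with a median span of 25.8 kb against 51.6 kb for those between -1 and 1. Of the former, 22.3% had more intron than exon counts, against 6.03%. Those counts average immunoprecipitates and inputs. An intron high in the precipitate can therefore pass the floor, and exceed its exons, through that same signal.

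Other genes had m6A signal in exons and not in introns. Ythdf3, a cytoplasmic m6A reader, had exons at 1.69 and introns at -1.27, a difference of -2.97, per the authors' deposited table. The zinc finger gene Zfp711 had exons at 2.04 and introns at -1.28, and Klhl15, a ubiquitin ligase adaptor, 2.66 and -1.14. The lowest intron fold was -4.12 for Klhl32 (chr4:24612559-24851150), which also had the highest intron count of the table at 13079, with exons of 46.0 counts at 0.19, and RefSeq places 1 long noncoding RNA inside it. Hnrnph1 followed at -1.77 with exons at -1.05 per the authors' deposited table.

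Genes known for introns held back in the nucleus lay low in the precipitate. Of 38 members of a list of SR proteins, CLK kinases and similar genes, 32 intron folds lay below 0, 8 were -1 or less and none was 1 or more, with a median of -0.80 beside -0.20 for all members and a median exon fold of -0.88. Srsf7, a splicing factor, stood at -1.18 in introns, the kinase Clk1 at -1.11 and the cyclin Ccnl1 at -1.17, the last with exons at 0.39, per the authors' deposited table. In the P12 knockout 29 of 40 members of that list lay above 0, none passed, and the median was 0.054. In the P8 knockout 30 of 40 lay below 0 against wild type, with a median of -0.078. Against the P8 heterozygote 28 of 40 did, with a median of -0.053, and none passed in either.

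Meiotic genes had low m6A signal in exons, while their introns lay near the level of all well-covered introns. Over 30 members the median exon fold was -1.03, beside -0.073 for all 12451 sense exon rows at this floor. Their median intron fold was -0.25, beside -0.20 for all members. Exon medians were as low for other lists, at -1.02 for the core spliceosome, -1.04 for snoRNA host genes and -1.27 for germ cell and piRNA genes. Lists differed, and that of m6A writers, erasers and readers had 0.14. Sycp2 stood at -1.33 in introns and -1.46 in exons, and Hormad1, a chromosome axis protein, at -1.61 and -2.10 per the authors' deposited table. Hormad2 stood at 0.76 in introns and -1.01 in exons. Stra8 had introns at 0.05 and exons at -0.90, and Meioc, the partner of YTHDC2, -0.78 and 0.38. Ythdc2 had introns at -0.93 and exons at -2.00 per the authors' deposited table. Of the 100 introns that fell at P12, 79 were well covered in the m6A table. Their median was -0.010, with 7 at 1 or more and 4 at -1 or less. Among all members 7.77% were at 1 or more and 3.81% at -1 or less, and the median was -0.20. The m6A reading is from wild-type testis at P8 and was not measured in the knockout here.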

How the data were processed

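Total RNA of knockout and control gonads and m6A immunoprecipitates of P8 wild-type testis were read from 4 deposited tables with a row per gene and feature class. The signal values are mean normalized counts that the authors deposited, 1 over all libraries of a table. The log2 fold changes and the adjusted p-values were deposited by the authors, and the submitters' processing notes name cutadapt, DESeq2 and the mm10 build, with versions not given in the sources used here. The headers of the P8 and P12 tables carry the words IP and input, though the labels list total RNA alone, and were read as knockout over control. The 4 m6A columns of other ages were not used, since they appear to be sorted apart from the row names: 2911 (P12) and 2823 (P20) rows with a mean of 0 carry a fold there, against 0 rows for P8. The m6A mean counts followed those of P8 total RNA by name, with a Spearman's rho of 0.89 over 18548 sense introns. The 8 Bind-n-Seq columns were not used.

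A member has a mean count of at least 100. An intron was called at the authors' adjusted p below 0.05, or for m6A, with 1 library a side, at a log2 fold of 1 or more in size. Named genes were up to 12 called introns with the largest fold each way (5 where fewer than 5 passed), up to 6 each way with the largest intron minus exon difference at an exon mean count of at least 100, called members of 18 gene lists with 3 more each way for the meiotic list, Ythdc2, Stra8 and Meioc, the 6 highest counts, the m6A extremes (12 highest, 8 lowest) and 3 members either side of the floor. Tissue and spermatid markers stand outside that rule. Some genes that the rule names are not reported here. Members and lists were chosen with earlier results of these data known. RefSeq spans (GRCm38.p6) matched 9850 of 9877 members at P8, 9168 of 9192 at P12, 7697 of 7716 in ovary and 5543 of 5558 for m6A. Alternatives were floors of 50 and 200, adjusted p limits of 0.01 and 0.1 and m6A folds of 0.5 and 2. Counting and comparison steps were tested on simulated data, in Python 3.11.15 with pandas 2.3.3, numpy 2.4.6 and matplotlib 3.10.9.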

Additional observations from a re-analysis of the deposited data

How the results depend on the processing

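The settings changed counts of calls and the m6A median difference, and left each deposited fold as it was. At an adjusted p limit of 0.01, 65 introns were lower and 2 higher at P12, and none passed in either direction at P8 against wild type (0 lower, 0 higher), and 49 of 136 called introns of the total RNA comparisons lost their call. At a limit of 0.1, 16 were higher at P12 and 17 in ovary. With a floor of 50, 13 were higher at P12 and 654 m6A introns had a fold of at least 1, with a median intron minus exon difference of 0.214. With a floor of 200, 4 were higher at P12, 7 lower in ovary, 0 lower at P8 against wild type and 1 lower against the heterozygote. The same floor left 228 m6A introns at 1 or more, 116 at -1 or less and a median difference of 0.172. An m6A fold limit of 0.5 gave 894 higher and 1627 lower, and a limit of 2 gave 99 and 1. Leaving out chromosome 1, an alternative chosen after seeing the data, left 0 higher at P8 against wild type. The list medians net of gene span were also added after seeing the data. No paired analysis was possible because the deposited tables hold no value per library, and for the same reason no library could be left out.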
